A study of Vitis vinifera with 6 samples.

Results

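The most abundant transcripts of ripening table grape berries were taken as the genes whose CPM, the reads counted for a gene relative to library size, averaged 1000 or more over 6 RNA-seq libraries. These 89 genes were chosen by that mean alone and were 0.555% of the 16030 genes abundant enough to be tested, out of 35134 in the annotation. The libraries came from deseeded berries of Vitis vinifera cv. Black Magic, an early black table grape, grafted on the rootstock 1103P and grown under plastic film in one vineyard. Vines were given GDPH, a corn gluten-derived protein hydrolysate sold as SURNAN, or urea (46% N) as the control. Both went into the soil with the irrigation water at the start of ripening, at the same 1.25 kg of nitrogen per hectare. Berries were pooled from the 7 vines of a plot 14 days later, and 3 of the 4 plots of each treatment were sequenced, which makes 3 urea and 3 GDPH libraries. No untreated vines are among the libraries analysed here, so every difference is relative to urea. Each library is a pool of skin and flesh from many berries, in which a change in the proportion of cells of a type and a change in RNA per cell cannot be told apart.

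Veraison is the point at which a grape berry stops being hard, green and acid, and begins to soften, import sugar, lose malic acid and, in black cultivars, colour its skin. The mRNA pool of a ripening fruit is uneven, with a small set of genes, commonly for cell wall, stress and storage-like proteins and for basic metabolism, giving many of the transcripts. Protein hydrolysates are mixtures of peptides and amino acids used as biostimulants, whereas urea is a simple nitrogen fertiliser that soil microbes convert to ammonium and nitrate. The files give genes by identifiers, in which the digits after "Vitvi" are the chromosome. None of the identifiers (0) matched the reference table used here, so no member has a name, role or sequence, the labelled tissue was not checked against marker genes, and the members are described by their levels, their plots, their relative length and their place in the numbering.

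The libraries held between 15092687 and 18763377 estimated counts. A member was read at least 3547 times in every library and at most 707419 times, so that the counting error of a value was at most 1.68%, below the pooled spread between plots of every member. Most members lay close above the threshold, as 55 averaged from 1000 to 2000 CPM, 21 from 2000 to 4000 CPM, 10 from 4000 to 10000 CPM and 3 at 10000 CPM or more. All 6 libraries were at or above 1000 CPM for 61 of the 89 genes. The lowest members, Vitvi08g00135, Vitvi19g00441 and Vitvi06g01649, averaged 1009, 1005 and 1003 CPM. The next genes, Vitvi09g00595, Vitvi04g00465 and Vitvi04g00388, were left outside at 996, 983 and 953 CPM. Vitvi08g00135 and Vitvi09g00595 lie on either side of the threshold with nearly level values in every plot, whereas Vitvi19g00441 and Vitvi06g01649 were inside because of their GDPH plots.

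The dominant transcripts took a larger part of the mRNA pool in berries of GDPH vines than in berries of urea vines. Together they held 20.9, 20.3 and 21.2% of all counts in the urea libraries and 27.3, 27.1 and 26.1% in the GDPH libraries. The means were 20.8% ± 0.468 and 26.8% ± 0.612 (SD, n = 3), a difference of 6.01 percentage points, and every GDPH library lay above every urea library. Since the genes were chosen with results of these libraries known, no test was made of the sum. The difference was not spread evenly. Vitvi05g01931, Vitvi19g00581 and Vitvi05g01946 gained 2.07, 1.32 and 1.13 percentage points, which is 75.3% of the net gain of all members. Without these 3 genes the other 86 held 18.5% ± 0.415 under urea and 19.96% ± 0.316 under GDPH. Over the members one by one, 48 took a larger share under GDPH, 8.52 percentage points in all, and 41 took a smaller one, with a summed change of -2.51 percentage points. On the scale of TPM, which also divides each count by transcript length, the members held 26.5% ± 0.739 under urea and 37.4% ± 0.779 under GDPH (SD, n = 3).

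**Figure D1:**
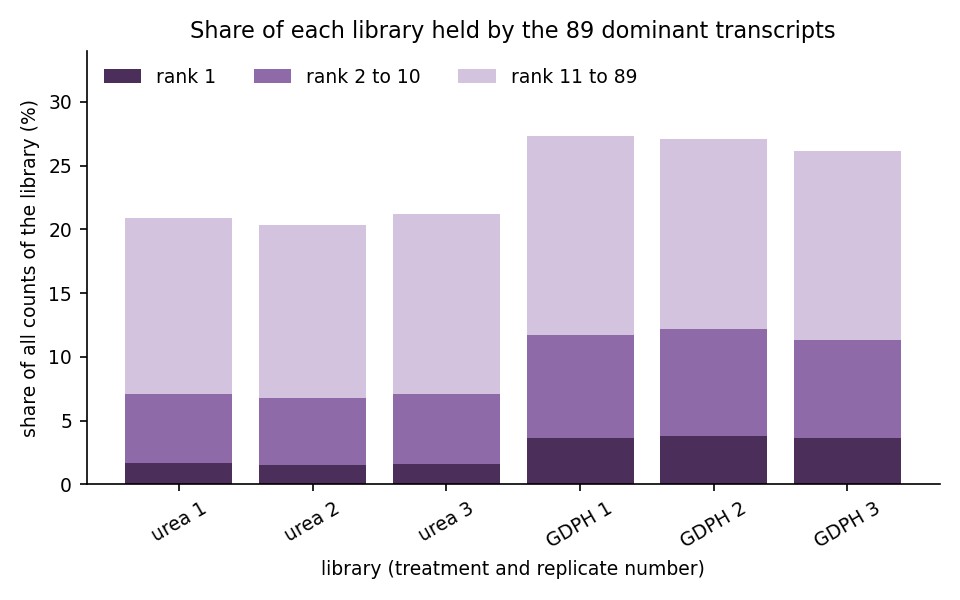
Share of all counts of each library, in percent, held by the most abundant gene (rank 1), by ranks 2 to 10 and by ranks 11 to 89, stacked. The 3 urea libraries reach 20.3 to 21.2% and the 3 GDPH libraries 26.1 to 27.3%, and most of the difference lies in the lower segments, ranks 1 to 10.

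Gene by gene, 34 of the 89 dominant transcripts were higher under GDPH, 7 were lower and 48 did not pass the test (edgeR quasi-likelihood test over all 16030 genes, TMM scaling, Benjamini-Hochberg adjusted p under 0.05, 3 libraries against 3). Over all tested genes 14.7% were called, 6.45% as higher and 8.23% as lower. The median log2 fold change of the members was 0.24, against -0.01 over all tested genes. A change of at least 2-fold was called for 12 members as higher and 2 as lower, where 1.56% and 4.09% of all tested genes were. The GDPH values lay wholly above the urea values in 45 members and wholly below in 15, against 18.5% and 19.7% of all tested genes, and the treatments overlapped in 29. The next most abundant genes also had more values on the GDPH side. Among the 1976 tested genes of 100 to 1000 CPM, 16.3% were higher and 9.06% lower, 37.2% lay wholly above and 16.0% wholly below, and the median log2 fold change was 0.12. No test was made between these genes and the members. A gene that is high in 1 treatment can reach the threshold through that treatment alone, and such a gene had to differ. Both treatment means were at or above 1000 CPM in 72 members, the GDPH mean alone in 12 and the urea mean alone in 5. Among the 72 genes at that level in both treatments, 25 were higher, 5 were lower and 42 did not pass. Of these 72, 33 lay wholly above and 11 wholly below, and their median log2 fold change was 0.17, against 0.24 for all members. Of the 12 that reached the level under GDPH alone 9 were higher, and all 12 lay wholly above. Of the 5 that reached it under urea alone 2 were lower, and 4 lay wholly below. Of the 12 rises of at least 2-fold, 5 reached the level under GDPH alone. Vitvi12g00429, among the 2-fold falls, reached it under urea alone. Chosen by the urea mean alone, 86 genes reached the threshold, with 25 higher and 12 lower, and 7 and 6 at 2-fold. These counts describe a list fixed by its mean level and do not show that abundance as such goes with a direction.

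The number of calls changed with the libraries used, the scaling and the test. Without urea replicate 2 there were 17 higher and 2 lower members, where 3.40% of all genes in that fit were called. Without GDPH replicate 2 there were 19 and 3, where 4.32% of all genes were called. Leaving out any other library gave 25 to 30 higher and 5 or 6 lower members, where 8.48 to 8.80% of all genes were called. Scaling to library totals alone, which lowers the median of all genes by 0.16 on the log2 scale, gave 27 higher and 14 lower members against 3.33% and 14.3% of all genes. DESeq2 called 40 members as higher and 13 as lower, against 9.49% and 11.2%. A change of both scale and test, limma on log2(TPM + 1), where that median is lower by 0.24, gave 19 and 18 against 2.44% and 24.1%. No called member (0 of 41) was called in the opposite direction in any of 18 alternatives. The median log2 fold change of the members stood 0.25 above that of all genes with TMM, 0.25 with totals and 0.21 with TPM. These values include the members that reached the level in 1 treatment alone. A change of scaling factors moves all genes by nearly the same amount. The likeness of the values with TMM and totals was therefore fixed in advance and adds no support.

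**Figure D2:**
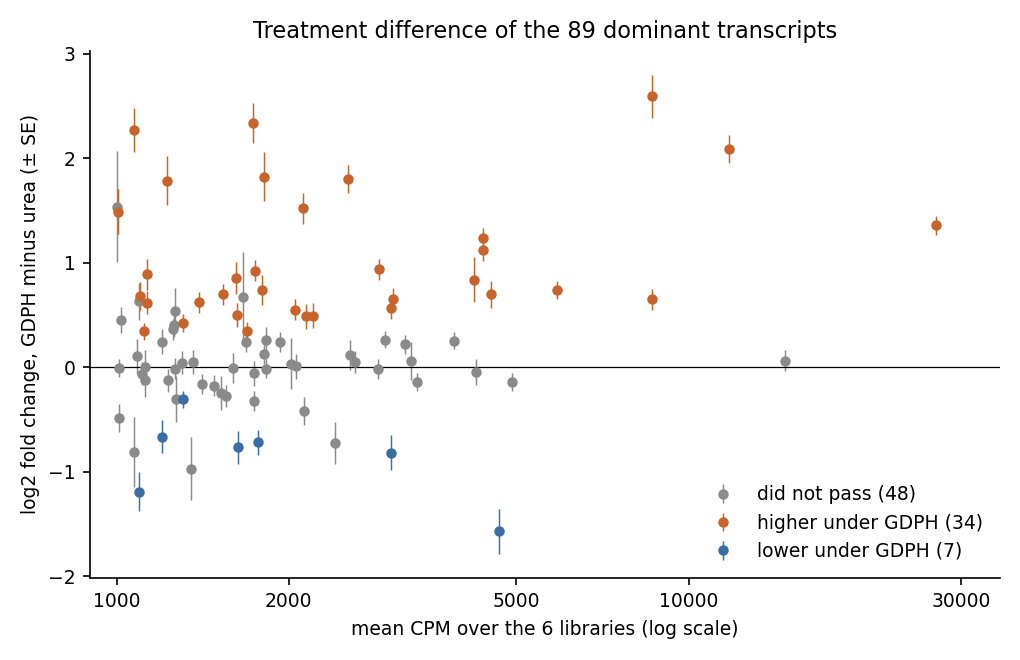
Log2 fold change, GDPH minus urea, with its standard error, against mean CPM over the 6 libraries on a log scale, for the 89 dominant transcripts. Genes that passed the test as higher (34) run from 0.34 to 2.59, those that passed as lower (7) from -1.57 to -0.31, and the rest (48) lie mostly around 0.

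The order of the most abundant genes differed between the treatments. Only 5 of the 10 most abundant genes under urea were also among the 10 most abundant under GDPH. Vitvi05g01931 was first in both, at 16208, 14318 and 15123 CPM in urea replicates 1, 2 and 3 and 38876, 40386 and 37809 CPM in the GDPH replicates. It rose 2.56-fold (1.36 on the log2 scale with an SE of 0.09, edgeR adjusted p = 0.0014), and its spread within a treatment was small beside that difference. Vitvi18g02973 was second under urea and at rank 3 under GDPH, with 14431, 14233 and 14690.0 CPM and 13279, 16277 and 15712 CPM. Its treatments overlapped, and its fold change of 1.04 had a 95% interval of 0.884 to 1.23. Vitvi19g00581 moved from rank 6 to rank 2, from 5001, 4079 and 4376 CPM to 18071, 21907 and 17146 CPM. Every GDPH plot was more than 3 times the highest urea plot, and the rise was 4.25-fold (log2 SE 0.13, edgeR adjusted p = 0.0014). Vitvi05g01946 moved from rank 22 to rank 4, from 2789.7, 2274 and 2309 CPM to 17970.5, 15735 and 10697 CPM. Its rise of 6.02-fold was the largest of any member (log2 SE 0.21, edgeR adjusted p = 0.0028), and its GDPH plots were uneven, with replicate 3 lowest.

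Another 5 of the 12 most abundant genes rose by smaller factors. Vitvi12g02356 had 6661, 7086 and 6384 CPM under urea and 11547, 10273 and 9758 CPM under GDPH (1.57-fold, edgeR adjusted p = 0.011). Vitvi14g00487 had 4719, 4281 and 4239 CPM and 7321, 7445 and 7306 CPM (1.67-fold, edgeR adjusted p = 0.0058), with GDPH plots within a coefficient of variation (CV, the SD as a percentage of the mean) of 1.04%. Vitvi16g01800 had 3495, 3461 and 3400.1 CPM, a CV of 1.40%, against 6649.8, 5373 and 4757 CPM (1.62-fold, edgeR adjusted p = 0.018). Its GDPH plots were much less even than its urea plots, and the call held in only 2 of the 6 fits that left out a library, with a largest adjusted p of 0.075. Vitvi12g02356, Vitvi14g00487 and Vitvi16g01800 all lost the call with limma on log2(TPM + 1). Vitvi19g02039 had 2779, 2501 and 2521 CPM and 5755, 6236 and 6429 CPM (2.36-fold, edgeR adjusted p = 0.0023). Vitvi01g01476 had 3001, 2691 and 2549 CPM and 6423, 6097 and 5456 CPM (2.18-fold, edgeR adjusted p = 0.004). In both of the last genes the treatments lay far apart, and both passed in all 6 fits that left out a library.

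The remaining 3 of the 12 did not rise. Vitvi02g00310 had 5132, 5223 and 5133 CPM under urea and 4414, 4984 and 4639 CPM under GDPH. All 3 GDPH values were lower than all urea values, but the fold change of 0.906 did not pass (95% interval 0.788 to 1.04, edgeR adjusted p = 0.30). Vitvi08g01890 had 5102, 4034 and 3809 CPM and 4055, 4353 and 4144 CPM, with overlapping treatments and urea replicate 1 highest. Vitvi19g01871 moved from rank 3 under urea to rank 31 under GDPH, with 5942, 6268 and 8742 CPM against 1887, 2201 and 2971 CPM. This was a 2.97-fold lower level, or -1.57 on the log2 scale with an SE of 0.22 (edgeR adjusted p = 0.0091), and replicate 3 was the highest plot in both treatments. The ratio of GDPH to urea within a replicate number was close to constant, at 0.318, 0.351 and 0.340.

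**Figure D3:**
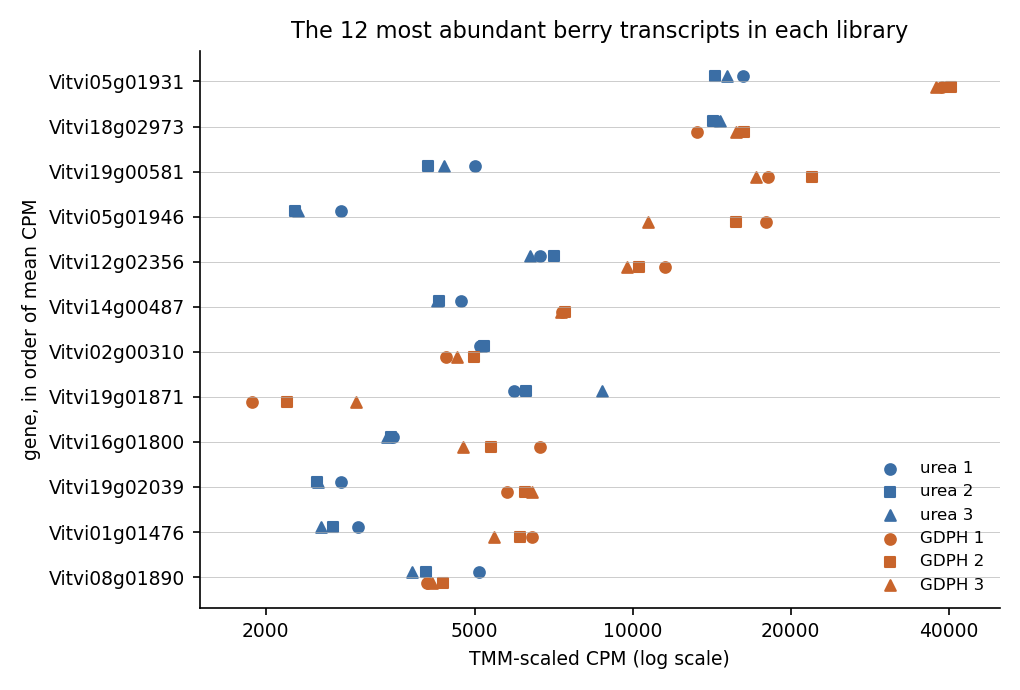
TMM-scaled CPM, on a log scale, of the 12 most abundant genes in each of the 6 libraries, with urea in blue and GDPH in orange and the replicate number as the marker. Vitvi05g01931, Vitvi19g00581 and Vitvi05g01946 show the widest gaps to the right under GDPH, Vitvi19g01871 shows one to the left, and the values of Vitvi18g02973 and Vitvi08g01890 overlap.

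Beyond the genes at the very top, 7 further members were among the 10 largest rises, and several were modest transcripts under urea. Vitvi19g02038 went from 663, 539 and 513 CPM to 2789, 3581 and 2288 CPM and from rank 171 to rank 23, a 5.05-fold rise. Vitvi11g01427 went from 405, 399.5 and 303 CPM to 2306, 1470.4 and 1562 CPM and from rank 337 to rank 50, a 4.82-fold rise and the longest climb among the members. Both had higher values in every GDPH plot than 3 times any urea plot. Vitvi19g02040 went from 769.6, 566 and 1067 CPM to 2904, 3130.0 and 2446 CPM (3.53-fold). Vitvi05g01044 went from 757, 482 and 418 CPM to 1875, 1669 and 2153 CPM (3.44-fold). For these 2 genes it was the urea plots that were uneven, with CVs of 31.5% and 32.6% against 12.3% and 12.8% under GDPH.

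Vitvi08g00138 had nearly level urea plots at 1097, 1113 and 1183 CPM and rose to 4628, 3897 and 3297 CPM (3.48-fold), which moved it from rank 72 to rank 14. Vitvi05g01583 rose from 1171, 1123 and 996 CPM to 3611, 3267 and 2552 CPM (2.87-fold), and Vitvi19g00441 from 477, 538 and 570.0 CPM to 2002, 1278 and 1167 CPM (2.81-fold). In all of these last genes GDPH replicate 1 was the highest plot. Over the 10 largest rises the edgeR adjusted p ran from 0.0014 to 0.0096, and all 10 passed in each of the 6 fits that left out a library and in every other alternative in which the gene was tested. The other 24 rises were 1.27- to 2.36-fold, and 7 of them passed in each of those 6 fits.

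Of the 7 falls, Vitvi19g01871 and Vitvi12g00429 passed in every alternative in which they were tested. Besides Vitvi19g01871, only Vitvi12g00429 fell at least 2-fold, from 1688, 1463 and 1412 CPM to 488, 740.3 and 771 CPM (2.28-fold lower, log2 SE 0.18, edgeR adjusted p = 0.011). Its highest GDPH plot had little more than 50% of the lowest urea plot, and it went from rank 47 to rank 162. Without GDPH replicate 1 its log2 fold change was -0.9986, just under 2-fold. Vitvi06g04109 fell from 3198, 3623 and 4733 CPM to 1882, 2342 and 2331 CPM (1.76-fold lower, edgeR adjusted p = 0.022). Vitvi04g00442 fell from 1812, 1896 and 2452 CPM to 1052, 1173 and 1399 CPM (1.70-fold lower, edgeR adjusted p = 0.022). In both, urea replicate 3 was the highest plot by a clear margin.

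Vitvi06g01693 fell from 2078, 2093 and 2412 CPM to 1162, 1476 and 1363 CPM (1.65-fold lower, edgeR adjusted p = 0.013). Vitvi10g04085 fell from 1488, 1332 and 1599.6 CPM to 745, 935 and 1106 CPM (1.59-fold lower, edgeR adjusted p = 0.032). Vitvi06g04107 fell by the smallest factor, from 1435, 1405 and 1502 CPM to 1184, 1160.3 and 1161 CPM (1.24-fold lower, edgeR adjusted p = 0.043), and it had the smallest pooled CV of any member, from CVs of 3.44% and 1.13%. Vitvi19g01871 and Vitvi12g00429 passed in each of the 6 fits that left out a library, Vitvi06g01693 in 5, Vitvi06g04109 and Vitvi04g00442 in 3, Vitvi10g04085 in 2 and Vitvi06g04107 in none (0).

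Among the 48 members that did not pass, 33 had a 95% interval of the difference that lay within 1.5-fold in either direction, and the interval of 7 reached 2-fold. The 4 genes of smallest difference were Vitvi11g00360, Vitvi19g04218, Vitvi11g00677 and Vitvi08g00135. Vitvi11g00360 had 946, 1274 and 1150.0 CPM under urea and 915, 1324 and 1129 CPM under GDPH, with replicate 2 highest and replicate 1 lowest in both, and a fold change of 0.999 (95% interval 0.763 to 1.31). Vitvi19g04218 had 2239, 1984 and 1932 CPM and 2382, 1935 and 1873 CPM, with replicate 1 highest in both (fold change 1.01, 95% interval 0.824 to 1.23). Vitvi11g00677 had 1467, 1425 and 1912 CPM and 1421, 1576 and 1772 CPM, with replicate 3 highest in both (fold change 0.993, 95% interval 0.785 to 1.26). Vitvi08g00135 was both level and even in CPM, at 958, 1021 and 1059 CPM and 1055, 992 and 969 CPM (fold change 0.993, 95% interval 0.863 to 1.14). Over the 18 alternatives its log2 fold change ran from -0.29 to 0.02, and it was called in 2 of them.

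The labels do not tie the replicate numbers to field blocks, and pairing by number was inferred from these same libraries. With the replicate number fitted as a block, 38 members were higher and 10 lower, where 9.81% and 12.2% of all tested genes were called in these directions. No called member (0) was lost and 7 were added. Vitvi08g01520, Vitvi07g01690, Vitvi11g00485 and Vitvi12g02137 were then higher, at adjusted p = 0.039, 0.034, 0.028 and 0.03 in the blocked edgeR fit. Vitvi14g01701, Vitvi13g01052 and Vitvi08g02189 were then lower, at adjusted p = 0.0096, 0.038 and 0.0048 in the same edgeR fit. The lowest of these p belonged to Vitvi08g02189, with 1893, 1312 and 896 CPM under urea and 973, 859 and 502 CPM under GDPH. Its treatments overlapped, but replicate 1 was highest and replicate 3 lowest in both, so that GDPH was below urea within every replicate number, at 0.514, 0.655 and 0.560 of the urea value. Over the 89 members the ratios within the 3 replicate numbers all lay above 1 in 52 genes, all below 1 in 21 and on both sides in 16. Over all tested genes 28.9% lay above and 30.2% below, and among those of 100 to 1000 CPM 48.4% and 22.1% did.

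The dominant transcripts differed widely in how even they were between plots of one treatment. The pooled CV ran from 2.56 to 54.3%. The median CV of the members was 8.25% under urea and 11.1% under GDPH, where all tested genes had 13.1% and 12.8% and those of 100 to 1000 CPM 7.63% and 8.05%. The members' median was thus below that of all genes and above that of the next most abundant genes. The CV was larger under GDPH in 54 of the 89 members, against 48.9% of all tested genes and 51.8% of those of 100 to 1000 CPM, and stayed under 10% in 55 members under urea and 38 under GDPH. GDPH replicate 1 was the highest GDPH library in 44 members and GDPH replicate 3 the lowest in 46. These are 49.4% and 51.7% of the members, against 40.1% and 31.9% of all tested genes and 48.8% and 43.5% of those of 100 to 1000 CPM. Among the 34 rises, GDPH replicate 1 was highest in 23 and GDPH replicate 3 in 2. The matching shares over all genes called as higher are not given here, so these counts do not show a trait particular to these rises.

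The most uneven members were Vitvi06g01649, Vitvi13g00172, Vitvi08g02189 and Vitvi13g00255. Vitvi06g01649 had 389, 221 and 933 CPM under urea and 1929, 1325 and 1219 CPM under GDPH. All GDPH plots were above all urea plots, yet its fold change of 2.90 had a 95% interval of 1.19 to 7.09 and did not pass after adjustment (edgeR adjusted p = 0.11). Vitvi13g00172 had 1253, 772 and 1820.1 CPM and 2989.8, 1156 and 1989 CPM, with replicate 2 lowest in both treatments and overlapping groups. Vitvi13g00255 had 1965, 1724 and 1681 CPM and 507, 1065 and 1167 CPM, with every GDPH value lower than every urea value. Its GDPH replicate 1 stood apart at less than 50% of the other GDPH plots, and the fold change of 0.510 did not pass (edgeR adjusted p = 0.078). The most even members were Vitvi06g04107, described above, Vitvi06g01696, Vitvi16g00796 and Vitvi18g00130. Vitvi06g01696 had 2669, 2706 and 2670.2 CPM and 3254, 3310.4 and 3079 CPM, and Vitvi18g00130 3467, 3586 and 3606 CPM and 4194, 4468 and 4053 CPM. In both of these all GDPH plots were above all urea plots, by 1.20- and 1.19-fold, and neither passed (edgeR adjusted p = 0.071 and 0.086). Vitvi16g00796, at 1000.5, 937 and 1022 CPM and 1284, 1251 and 1214 CPM, passed with a rise of 1.27-fold (edgeR adjusted p = 0.036), but in none (0) of the 6 fits that left out a library.

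**Figure D4:**
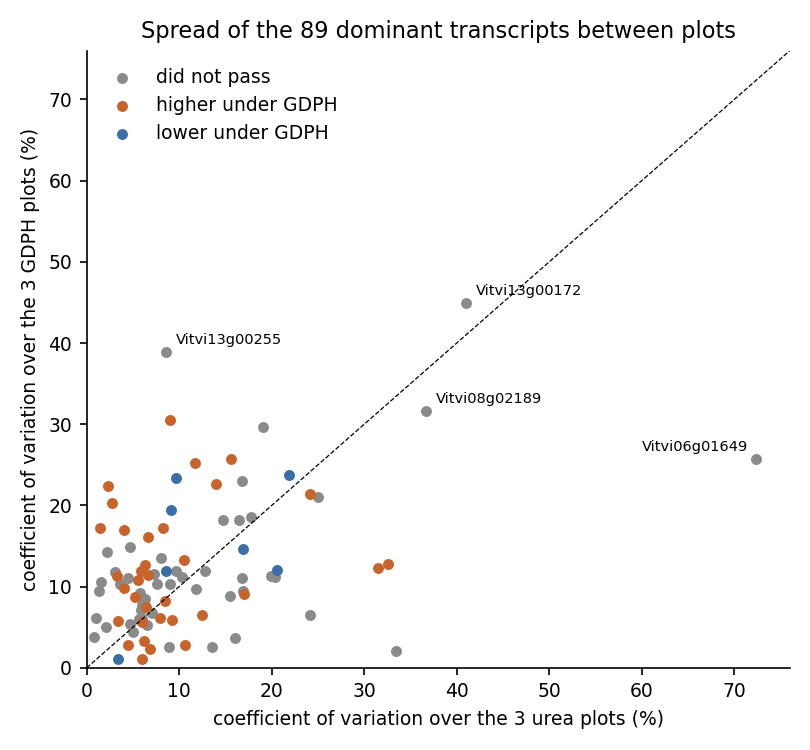
Coefficient of variation of CPM over the 3 urea plots against that over the 3 GDPH plots, in percent, for the 89 dominant transcripts, with a dashed line of equal spread. Both values are under 20% for 67 genes, and the 4 labelled genes have the largest pooled spread.

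Counts favour long transcripts, so relative length was taken from the deposited tables as the ratio of count to TPM, scaled to 1 for the median tested gene. The members had a median relative length of 0.971 and ran from 0.175 for Vitvi10g04085 to 9.55 for Vitvi14g01701. The most abundant of them were short: 8 of the 12 genes of highest CPM had a relative length under 0.5. Per length, Vitvi10g04085 stood at rank 12 with a mean of 5773 TPM, although it was at rank 71 in CPM, and Vitvi14g01701, at rank 27 in CPM, dropped to rank 668 with 212 TPM. Per length the 3 leading genes were Vitvi05g01931, with 36762 ± 1818 TPM under urea and 77326 ± 1716 TPM under GDPH (SD, n = 3), Vitvi19g00581, with 12305 ± 1115 and 42791 ± 4939.8 TPM, and Vitvi18g02973, with 26777 ± 576 and 22973 ± 2791 TPM. On this scale Vitvi18g02973 was the second gene under urea and the fourth under GDPH.

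Of the 15 members with a relative length under 0.5, a limit set after the values were seen, 12 were higher, 1 was lower and 2 did not pass, and their median log2 fold change was 1.24. Among the 12, Vitvi19g02038, Vitvi19g02040 and Vitvi11g01427 reached a mean of 1000 CPM under GDPH alone. The fall, Vitvi10g04085, reached it under urea alone. The rule by which members were chosen meant that these genes had to differ. Of the 31 members from 0.5 to 1, 9 were higher and 1 lower, and of the 43 members of relative length 1 or more, 13 were higher and 5 lower, with medians of 0.25 and 0.10. Among all tested genes with a relative length under 0.5, 5.67% were higher and 9.54% lower, and for those of 100 to 1000 CPM the shares were 16.4% and 24.7%. With library totals alone 11 of the 15 short members were higher and 1 lower, and with limma on log2(TPM + 1) 9 were higher and 1 lower. The difference between members and other short genes was not tested.

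**Figure D5:**
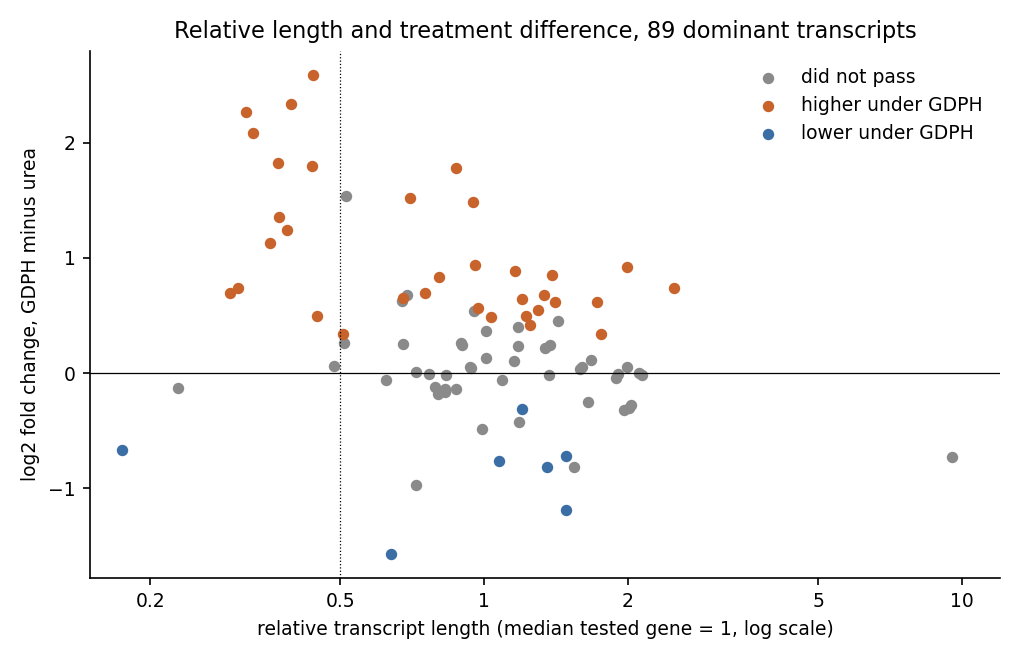
Log2 fold change, GDPH minus urea, against relative transcript length on a log scale (1 is the median tested gene) for the 89 dominant transcripts, with a dotted line at 0.5. Left of the line 12 of 15 genes passed as higher, and Vitvi10g04085, the shortest, passed as lower.

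By their identifiers the members came from 18 of the 19 numbered chromosomes, with none (0) on chromosome 15. Chromosomes 5, 8 and 19 each had 9. Of the 9 on chromosome 5, 7 were higher and 0 lower, and of the 9 on chromosome 19, 5 were higher and 1 lower, whereas of the 7 on chromosome 13 none (0) was called. Over all tested genes of these chromosomes 6.79%, 6.68% and 6.60% were higher and 9.58%, 9.63% and 7.03% lower. Of all members 38.2% were higher and 7.87% lower, against 6.45% and 8.23% of all tested genes. As a set, members were thus called as higher more often than tested genes in general, but those on chromosome 13 were not. Vitvi05g01044 and Vitvi05g01094 on chromosome 5 reached a mean of 1000 CPM under GDPH alone. So did Vitvi19g02038, Vitvi19g02040 and Vitvi19g00441 on chromosome 19, and these genes had to differ. No test was made between chromosomes. There were 12 pairs of members whose identifiers on one chromosome differed by at most 20, formed by 21 genes. Both genes were called in the same direction in 6 of these pairs, and 1 gene was called in the other 6. Every pair within the group Vitvi19g02038, Vitvi19g02039 and Vitvi19g02040 is among those called alike, so the pairs are not separate observations. Over all pairs of tested genes within 20 numbers, 1.23% were called in one direction, but members are called more often than other genes. The identifiers were read as numbers and not as positions.

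The 3 members with consecutive identifiers, Vitvi19g02038, Vitvi19g02039 and Vitvi19g02040, all rose, 5.05-, 2.36- and 3.53-fold, and all held whole counts in every library. Vitvi19g02039 was the most abundant of them in both treatments, while Vitvi19g02038 and Vitvi19g02040 had urea values that overlapped and GDPH values that overlapped. The nearest tested identifiers on either side, Vitvi19g02035 and Vitvi19g02042, were far lower and did not pass, at 30.4 and 29.8 CPM and at 1.71 and 0.981 CPM under urea and GDPH. Vitvi05g01931 and Vitvi05g01946, ranks 1 and 4, were another close pair. Next to Vitvi05g01946, Vitvi05g01947 rose from 28.1, 20.5 and 25.1 CPM to 476, 312 and 137 CPM (12.5-fold, edgeR adjusted p = 0.0093). Its GDPH plots had the same order as those of Vitvi05g01946. Vitvi05g01945 rose from 4.38, 4.18 and 2.83 CPM to 30.4, 74.4 and 77.5 CPM (16.0-fold, edgeR adjusted p = 0.0058), in the opposite order. Both of these weaker genes held fractional counts, which RSEM gives to reads it divides among genes, so their levels are uncertain, while Vitvi05g01946 did not.

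Fractional counts occurred in 9 members, 5 of them called. These were Vitvi05g01583 and Vitvi03g01490 among the rises and Vitvi06g04109, Vitvi06g04107 and Vitvi12g00429 among the falls, so that 3 of the 7 falls rest on counts that were partly divided among genes. The other 4, which did not pass, were Vitvi19g04218, Vitvi19g00434, Vitvi04g01670 and Vitvi06g01649. Vitvi06g04109 and Vitvi06g04107 also have identifiers only 2 numbers apart. Without any gene that held a fractional count, 80 members were tested, of which 32 were higher and 5 lower.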

How the data were processed

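Per the labels' protocols, total RNA of berries pooled by plot went into a stranded mRNA library kit. The submitters' processing notes list STAR 2.7.9a and RSEM 1.3.3, with no roles. Genome build and annotation release: not given in the sources used here. Unscaled expected counts, that is estimated counts per gene, were deposited together with TPM for all 6 libraries. A fractional count, at a tolerance of 1e-09, occurred in 3053 of 35134 genes.

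Counts were rounded, and filterByExpr of edgeR (per treatment, count 10, total 15) kept 16030 genes. CPM used TMM factors of 0.932 to 1.06. A few genes, all under 1000 CPM, are not reported here. The test was the robust quasi-likelihood F test of edgeR over all 16030 genes, adjusted by Benjamini-Hochberg and called under 0.05, and it was tested on simulated data. The SE is the log2 fold change over the square root of F, and 95% intervals use the t quantile of the fit. Shares are of unscaled totals. Replicates are separate field plots, per the labels. At 15092687 to 18763377 counts a library, an observed 0 still allows 3 counts, or 0.160 to 0.199 CPM, from counting error only.

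After centring each treatment, urea and GDPH libraries of one number correlated across genes at 0.345, 0.495 and 0.265, against -0.298 to -0.0708 for unlike numbers. Centring makes the deviations within a treatment cancel, so positive values for like numbers go with negative ones for unlike numbers in part by construction. Across the members alone the values were 0.133, 0.382 and 0.251, against -0.337 to 0.0999. The pairing rests on this check: the labels describe blocks but do not tie the numbers to them. The unblocked fit was kept as the primary one, as planned.

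Named members were the 12 of highest mean CPM, the 10 largest rises and all falls among calls without overlap, the 4 of smallest difference, the 4 most and 4 least even, those beside the threshold, and close identifiers. Other named genes were chosen after their values were seen. Members, lists and rules were chosen with earlier results of these data known. Alternatives were RLE factors, library totals, DESeq2, limma-voom, no robust option, no filter, 5 CPM in 3 libraries, limma on TPM with pseudocounts of 1 and 0.1, the replicate block, each library left out, TMM factors without the members, no fractional genes, and other membership rules. Versions were R 4.3.3, edgeR 4.0.16, limma 3.58.1 and DESeq2 1.42.0.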

Additional observations from a re-analysis of the deposited data

How the results depend on the processing

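Over 18 alternatives the 89 single-gene results stayed on their side of the threshold 1418 times, lost a call 114 times and gained one 61 times, and no called gene changed sign (0). Of the 41 called members, 17 passed in every alternative in which they were tested and 19 in all 6 fits that left out a library. Leaving out 1 library gave 17 to 30 higher members, 2 to 6 lower and 13 to 15 changed at least 2-fold. Library totals gave 14 lower members and DESeq2 13, and limma on TPM gave 19 higher and 18 lower with either pseudocount. The limma fits changed both the scale and the test, and the causes of these moves were not tested. The replicate block gave 38 higher and 10 lower, and no call was lost under it (0). The gain in share, 6.01 percentage points, was 10.9 on the TPM scale and 3.94 without the most abundant member; without 1 library it ran from 5.76 to 6.36. For the members at or above 1000 CPM in both treatment means it was 5.39, or 10.1 on the TPM scale, 3.31 without the most abundant member and 5.17 to 5.68 without 1 library. Other thresholds gave 226 genes from 500 CPM, with 69 higher and 16 lower, and 34 from 2000 CPM, with 17 and 2. Chosen by urea alone there were 86 genes, 25 higher and 12 lower, with 7 and 6 at 2-fold and a median log2 fold change of 0.05. By GDPH alone there were 98, 43 higher and 5 lower, with 15 and 1 at 2-fold and a median of 0.39, so the balance of directions depends on which libraries choose them. By a mean of at least 1000 TPM there were 83, 31 higher and 4 lower. At these counts the precision is limited by the 3 plots of each treatment and not by depth.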

Other observations

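Ranked by TPM instead of CPM, 83 genes averaged at least 1000, and 61 of them were among the dominant transcripts described above. The other 22 were short, with relative lengths of 0.0267 to 0.607, and averaged from 37.4 to 952 CPM. Of them 7 were higher under GDPH and 0 lower, against 6.45% and 8.23% of all tested genes. The most abundant per length was Vitvi18g02775, with 581, 499 and 465 CPM under urea and 1583, 1308 and 1091 CPM under GDPH (1.37 on the log2 scale with an SE of 0.16, edgeR adjusted p = 0.0056). Its mean was 6052 TPM. Vitvi02g01408 had 676, 519 and 369 CPM and 1463, 1048 and 1293 CPM (1.28 on the log2 scale with an SE of 0.23, edgeR adjusted p = 0.017). Vitvi03g04055 had 542, 387 and 363 CPM and 972, 876 and 873 CPM (log2 fold change 1.08, SE 0.16, edgeR adjusted p = 0.01). In each of the 3 every GDPH plot was above every urea plot. They were chosen after their values were seen, and their TPM rest on the authors' length correction, whose form for short transcripts was not tested. Of the 22, Vitvi08g04419 and Vitvi19g02014 averaged only 37.4 and 55.1 CPM and reached 1000 TPM through relative lengths of 0.0267 and 0.0396. Of the 7 rises, Vitvi02g00333 and Vitvi08g01993 had urea means of 830 and 853 TPM. They reached 1000 TPM through their GDPH values alone and so had to differ.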
